A study of Homo sapiens with 16 samples.

Results

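Distal intergenic AIB1 clusters are genomic regions, called in ChIP-seq (sequencing of immunoprecipitated chromatin) against the protein AIB1, that lie outside every protein-coding gene and away from every promoter. Of the 897 distinct clusters in the 4 deposited lists, 275 were of this kind. They were chosen by having been called in at least 1 list and by position: no overlap with a protein-coding gene body of GENCODE release 44 on GRCh37, a distance of over 5 kb from every protein-coding transcription start site (TSS), and a place outside 3 cluster-dense blocks on chromosomes 8, 10 and 17, which held 260 clusters. The other clusters were 167 within 5 kb of a TSS (TSS-proximal) and 195 farther away but within a protein-coding gene (distal intragenic). Because every cluster had to be called in some list to be counted, the counts of lists below describe called clusters and not how often AIB1 occupied such sites.

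The series compared MCF10A, a non-tumorigenic human mammary epithelial line, and MCFDCIS, a line that models ductal carcinoma in situ, each with its D4 counterpart. Each of these 4 groups had 3 AIB1 ChIP samples and 1 input sample, 16 samples in all. The labels do not say what D4 marks, how many clones it comprises, or whether the 3 samples of a group were separate cultures. The series title speaks of an AIB1D4 cistrome and its design text of AIB1 isoforms. All groups shared the same conditions: DMEM:F12 medium with 5% horse serum, EGF, hydrocortisone, cholera toxin and insulin, passages 10 to 15, and crosslinking in 1.2% formaldehyde. The deposited data hold 1 list of clusters per group, with a position and the authors' score, whose definition is not stated, for each cluster. These lists hold no value per replicate and no depth, so no replicate error can be given here. The sample descriptions of one line cite the lists named after the other line, so lists are called MCF10A-named or MCFDCIS-named, parental or D4, and none was assigned to a cell line.

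AIB1, encoded by NCOA3, is a coactivator of the p160 family. It does not itself recognise a DNA sequence, but is recruited by nuclear receptors and other transcription factors, and brings histone acetyltransferases to enhancers and promoters. Distal enhancers of mammary epithelial cells commonly carry sites for AP-1 (dimers of FOS and JUN proteins), TEAD factors, RUNX and C/EBP. The glucocorticoid receptor, whose ligand hydrocortisone was in the medium, binds a palindromic glucocorticoid response element (GRE).

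The sequence of 7 of the 275 clusters held a GRE, and all 7 sites lay at most 38.5 bp from the cluster centre. The sequences of 6 are shown for this reason, and the other one is not reported here. The GRE was searched as AGAACANNNTGTNCN on both strands of the central 500 bp. All lines below are 39 bases, 5′ to 3′ on the strand that holds the match, with the 15-base match in capitals. On GRCh37 they lie at chr1:222065257-222065295 (nearest TSS DUSP10, plus strand), chr2:86151728-86151766 (ST3GAL5, minus), chr3:189101690-189101728 (TPRG1, plus), chr9:96897716-96897754 (PTPDC1, minus), chr11:122032973-122033011 (BLID, minus) and chr13:40795626-40795664 (FOXO1, plus).
DUSP10: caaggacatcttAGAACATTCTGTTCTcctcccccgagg
ST3GAL5: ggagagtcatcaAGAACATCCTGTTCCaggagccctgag
TPRG1: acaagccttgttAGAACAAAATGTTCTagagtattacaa
PTPDC1: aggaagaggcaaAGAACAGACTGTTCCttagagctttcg
BLID: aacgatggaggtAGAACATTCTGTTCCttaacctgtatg
FOXO1: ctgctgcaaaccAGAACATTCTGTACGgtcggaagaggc

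Of these 7 sites, 2 held both half-sites in full, DUSP10 and TPRG1. BLID held the site farthest from its cluster centre. Cluster starts lie on a 50 bp grid, so distances from a centre are coarse. Apart from PTPDC1, which was in the MCF10A-named parental list only, each of the GRE clusters was in both parental lists. DUSP10 encodes a phosphatase of p38 and JNK. The distance to the nearest TSS varied, from 19.4 kb for ST3GAL5 to 150 kb for DUSP10 and 445 kb for FOXO1.

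The central 200 bp of 6 clusters are shown because the results name them for their scores or lists, and they are not typical of the 275. DUSP10, ETAA1 and METTL9 were the only ones of the 275 in all 4 lists. CDKN2AIPNL had the highest score of the 275 in both parental lists, TNS4 is a high-scored cluster with an AP-1 site, and FGF1 had the highest score of the 275 in the MCF10A-named D4 list. All are on the plus strand of GRCh37, 5′ to 3′, with AP-1 matches (TGACTCA or TGAGTCA) and GRE matches in capitals. They are chr1:222065156-222065355 (DUSP10), chr2:67691056-67691255 (ETAA1), chr16:21566556-21566755 (METTL9), chr5:133802281-133802480 (CDKN2AIPNL), chr17:38666581-38666780 (TNS4) and chr5:142105856-142106055 (FGF1).
DUSP10: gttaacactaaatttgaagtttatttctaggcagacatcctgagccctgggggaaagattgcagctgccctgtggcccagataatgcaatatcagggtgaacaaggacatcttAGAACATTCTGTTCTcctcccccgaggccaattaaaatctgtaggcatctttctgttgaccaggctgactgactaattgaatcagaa
ETAA1: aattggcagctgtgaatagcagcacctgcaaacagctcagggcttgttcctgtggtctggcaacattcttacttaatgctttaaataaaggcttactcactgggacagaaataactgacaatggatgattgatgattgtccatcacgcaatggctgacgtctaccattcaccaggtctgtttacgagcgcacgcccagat
METTL9: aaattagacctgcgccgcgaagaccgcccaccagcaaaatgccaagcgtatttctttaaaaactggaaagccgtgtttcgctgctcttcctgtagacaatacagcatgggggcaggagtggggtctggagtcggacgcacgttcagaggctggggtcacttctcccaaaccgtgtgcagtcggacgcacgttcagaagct
CDKN2AIPNL: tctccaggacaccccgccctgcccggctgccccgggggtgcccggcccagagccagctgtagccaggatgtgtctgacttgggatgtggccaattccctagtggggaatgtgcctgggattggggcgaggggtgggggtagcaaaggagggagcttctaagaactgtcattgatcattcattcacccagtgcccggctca
TNS4: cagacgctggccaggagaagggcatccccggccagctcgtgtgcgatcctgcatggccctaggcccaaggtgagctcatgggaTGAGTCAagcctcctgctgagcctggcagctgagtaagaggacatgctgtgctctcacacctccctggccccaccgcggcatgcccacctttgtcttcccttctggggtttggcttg
FGF1: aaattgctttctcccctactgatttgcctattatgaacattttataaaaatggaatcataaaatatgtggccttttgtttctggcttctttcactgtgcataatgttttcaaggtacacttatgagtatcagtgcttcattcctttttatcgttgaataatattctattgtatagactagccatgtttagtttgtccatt

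DUSP10 carries a GRE and no AP-1 match in this window, TNS4 an AP-1 match and no GRE, and the other 4 windows carry neither. A match describes the letters only, and a window without one says nothing about which factors were present.

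Most distal intergenic clusters came from the parental lists. The MCFDCIS-named parental list held 230 of the 275, 83.6% (exact Clopper-Pearson 95% interval 78.7 to 87.8), and the MCF10A-named parental list 166, 60.4% (54.3 to 66.2). The D4 lists held 39 (14.2%, 10.3 to 18.9) under the MCF10A name and 27 (9.82%, 6.57 to 14.0) under the MCFDCIS name. Among all 637 clusters outside the dense blocks, the shares were 81.3% and 54.3% for the MCFDCIS-named and MCF10A-named parental lists, and 13.8% and 12.4% for the MCF10A-named and MCFDCIS-named D4 lists. The share of distal intergenic clusters in each list was thus near the share of all clusters. The 4 lists differ in length, with 490 and 138 clusters under the MCF10A name and 651 and 99 under the MCFDCIS name.

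Of the 275 clusters, 113 were in both parental lists and no other, 76 in the MCFDCIS-named parental list alone and 24 in the MCF10A-named parental list alone. In all, 112 clusters were in 1 list, 142 in 2, 18 in 3 and 3 in 4. A D4 list held 62 clusters, 22.5% (17.7 to 27.9), against 160 of all 637 clusters outside the dense blocks (25.1%). Of the 275, 13 (4.73%) were in a D4 list and no parental list, against 41 of 637 (6.44%). Both D4 lists held 4 of the 275 (1.45%), against 7 of 637 (1.10%): DUSP10, ETAA1, METTL9 and a cluster 175 kb from H3-7.

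**Figure D1:**
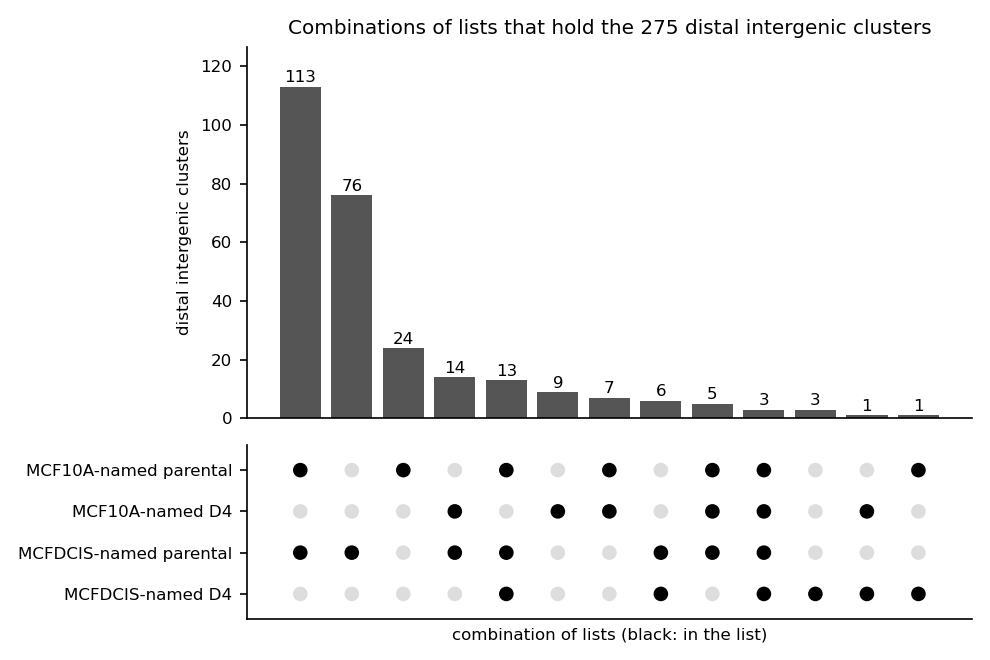
Bars give the number of distal intergenic clusters (vertical axis) in each combination of the 4 lists, marked by black dots below. The 113 clusters in both parental lists and no D4 list form the tallest bar, and combinations that include a D4 list hold at most 14 clusters.

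Many D4 clusters were also parental clusters, among distal intergenic clusters and among all clusters. Of the 39 distal intergenic clusters in the MCF10A-named D4 list, 15 (38.5%, 23.4 to 55.4) were in the parental list of the same name, and 22 (56.4%, 39.6 to 72.2) in the parental list named after MCFDCIS. Of the 27 in the MCFDCIS-named D4 list, 22 (81.5%, 61.9 to 93.7) were in the parental list of the same name and 17 (63%, 42.4 to 80.6) in that named after MCF10A. Among all clusters outside the dense blocks these shares were 39.8% (35 of 88) and 51.1% (45 of 88) for the MCF10A-named D4 list, and 72.2% (57 of 79) and 44.3% (35 of 79) for the MCFDCIS-named one. No test was made of these shares, and nothing particular to distal intergenic clusters is read from them.

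Distal intergenic clusters were shared by both parental lists more often than TSS-proximal clusters. Among clusters in at least 1 parental list, 134 of 262 distal intergenic clusters were in both, 51.1% (44.9 to 57.3), against 51 of 151 TSS-proximal ones, 33.8% (26.3 to 41.9). The difference was 17.4 points (Newcombe 95% interval 7.46 to 26.6), with a Benjamini-Hochberg adjusted p of 0.00138 by Fisher's exact test, two-sided. It did not pass among clusters above the median score of a list (12.4 points, adjusted exact p = 0.123), nor without chromosome 5 (12.6 points, adjusted exact p = 0.063). Against distal intragenic clusters, of which 83 of 183 (45.4%) were in both, the difference was 5.79 points (-3.63 to 15.0, adjusted exact p = 0.248). Throughout, such tests compare sets of called regions, not replicate cells, and neighbouring clusters are not independent of each other.

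Fewer distal intergenic than TSS-proximal clusters were in the MCFDCIS-named D4 list. Of the clusters in either MCFDCIS-named list, 27 of 235 distal intergenic clusters were in the D4 list, 11.5% (7.71 to 16.3), against 33 of 135 TSS-proximal ones, 24.4% (17.5 to 32.6). The difference was -13.0 points (-21.6 to -4.95), with an adjusted p of 0.00758 by Fisher's exact test. It did not pass with a TSS limit of 10 kb (-8.71 points, adjusted exact p = 0.0838), above the median score (-13.2 points, 0.104) or without chromosome 5 (-11.4 points, 0.0501). Under the MCF10A name the shares were 20.5% (39 of 190) and 27.5% (25 of 91), a difference of -6.95 points (-18.1 to 3.33, adjusted exact p = 0.449). Against distal intragenic clusters the D4 shares differed by 0.187 points (-9.44 to 9.08) under the MCF10A name and 0.313 points (-6.29 to 6.43) under the MCFDCIS name, both with an adjusted exact p of 1. Whether the contrast with TSS-proximal clusters differs between line names was not tested.

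Within each list, no test found the authors' scores of distal intergenic clusters above or below those of the other clusters outside the dense blocks. Under the MCF10A name their median score was 13.4 (range 7.14 to 94.0) for parental and 8.38 (7.02 to 31.8) for D4 clusters, and under the MCFDCIS name 25.2 (7.05 to 156.7) and 9.80 (7.11 to 25.5). Clusters of the dense blocks were left out, so the tests covered 346, 88, 518 and 79 clusters of the lists in the same order. The share above the median of these clusters differed from that of the other clusters by -3.47, -6.91, 7.82 and 5.70 points. None of the 4 exact median tests passed (adjusted p from 0.371 to 0.668), and none had an unadjusted p under 0.05. The scores of the 134 clusters in both parental lists had a Spearman rank correlation of 0.166 across clusters, given as a description. A score of 8.38 recurred in 10 of the 39 clusters of the MCF10A-named D4 list.

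The cluster near CDKN2AIPNL, 54.5 kb upstream of a gene related to a regulator of the p53 pathway, had parental scores of 94.0 (MCF10A-named) and 156.7 (MCFDCIS-named). The D4 list named after MCFDCIS held it as well, with a score of 10.8, and that named after MCF10A did not. It lies at chr5:133802101-133802660, in the body of a long noncoding RNA (lncRNA) gene, and had no AP-1 or GRE match. The cluster upstream of IRX4, a homeobox gene, scored 74.2 and 140.3 in the parental lists and 19 in the MCFDCIS-named D4 list, where it ranked 5 of 99.

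The DUSP10 cluster had parental scores of 89.0 (MCF10A-named) and 97.3 (MCFDCIS-named), and D4 scores of 8.58 and 10.4. The ETAA1 cluster, 66.6 kb downstream of the TSS of a gene for a replication stress protein, scored 7.61 in the MCF10A-named parental list, where it ranked 445 of 490. In the MCFDCIS-named parental list it scored 149.7, rank 6 of 651. Its D4 scores were 8.80 and 8.97. The METTL9 cluster, 41.9 kb upstream of a methyltransferase gene, scored 7.19, 8.38, 11.2 and 9.97 in the MCF10A-named parental, MCF10A-named D4, MCFDCIS-named parental and MCFDCIS-named D4 lists. It was 10 bp wide, and its central 100 bp had 1 further close match in the genome. Being in all 4 lists was thus not tied to a high score in each.

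**Figure D2:**
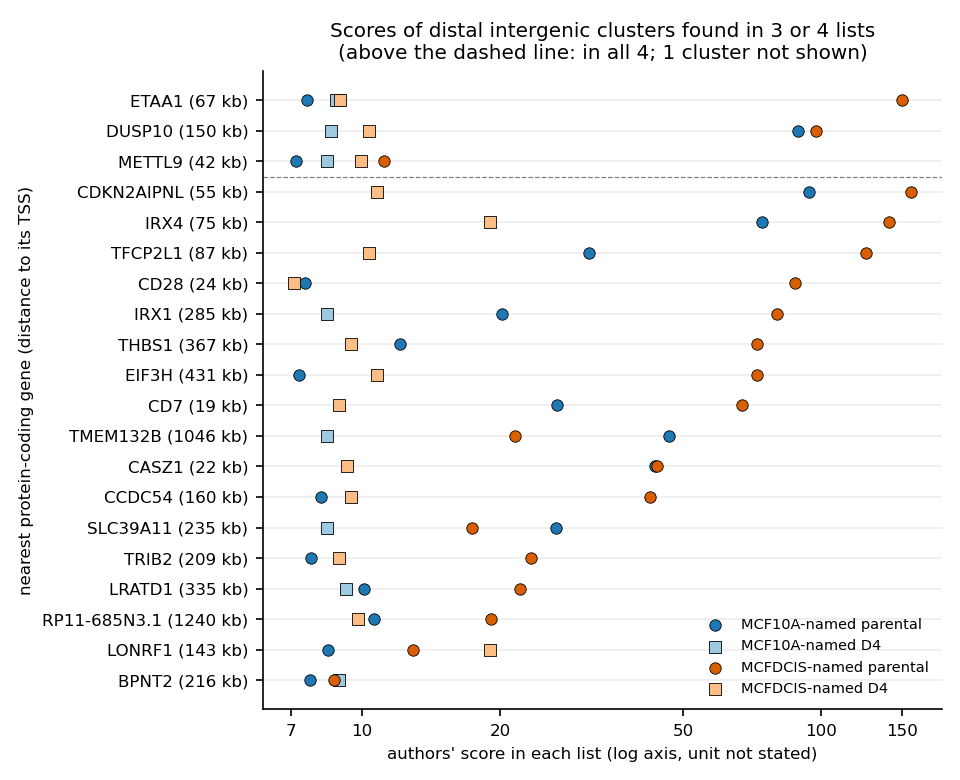
Each row is a distal intergenic cluster in 3 or 4 lists (1 is not shown), named by the nearest protein-coding gene and its distance, and each point is the authors' score in 1 list on a log axis. Scores range from 7.11 (CD28, MCFDCIS-named D4) to 156.7 (CDKN2AIPNL, MCFDCIS-named parental), and whether scores of different lists share a scale is not stated.

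Among the 18 clusters in 3 lists, 13 were in both parental lists and the MCFDCIS-named D4 list, and 5 in both parental lists and the MCF10A-named D4 list. The first group included TFCP2L1 (scores 31.1, 125.2 and 10.4 in the MCF10A-named parental, MCFDCIS-named parental and MCFDCIS-named D4 lists), CASZ1, TRIB2 and THBS1. The second group was LRATD1, IRX1, TMEM132B, SLC39A11 and BPNT2. The IRX1 cluster, near a homeobox gene, scored 20.2 and 80.2 in the parental lists and 8.38 in the MCF10A-named D4 list.

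The highest-scored cluster of each D4 list differed from that of the parental lists. In the MCF10A-named D4 list the first was 28.3 kb upstream of FGF1, a fibroblast growth factor gene, with a score of 31.8, rank 2 of that whole list, and its score in the parental list of that name was 16.2. It was in neither MCFDCIS-named list. The next was 125 kb from the TSS of TP63, a master regulator of basal epithelium, which scored 19.7 in that D4 list and 38.9 in the MCFDCIS-named parental list. In the MCFDCIS-named D4 list the first was 7.92 kb from GOLGA6D, with a score of 25.5, and its central 100 bp had 3 further close matches in the genome.

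The 13 clusters in a D4 list and no parental list had D4 scores from 7.02 to 14.8. Of these, 9 were in the MCF10A-named D4 list alone (near PPIAL4E, SLMAP, MYLK, ABLIM3, IL17B, POTEB2, TPM1, MMD and IZUMO2), of which SLMAP scored 7.34 and PPIAL4E 14.8. The MCFDCIS-named D4 list alone held 3, near LBR (10.8), FGF1 (10.1) and NFIB (9.62), and H3-7 was in both D4 lists (7.02 and 9.27). MYLK encodes myosin light chain kinase and TPM1 a tropomyosin. These names follow from the nearest TSS and were listed after their values were seen. The PPIAL4E cluster lay 8.19 kb from a gap in the genome assembly. Within 1 Mb of such a gap lay 47 of the 275 (17.1%), against 30 of 167 TSS-proximal and 21 of 195 distal intragenic clusters.

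Distal intergenic clusters lay a median of 62.9 kb from the nearest TSS (range 5.19 to 1768). Of the 275, 73 were within 25 kb, 95 between 25 and 100 kb, 87 between 100 and 500 kb, and 20 farther away. The farthest were near BRINP3 (1768 kb) and in the RP11-685N3.1 run described below. Intergenic here refers to protein-coding genes: 108 clusters (39.3%) lay in the body of a lncRNA gene, 15 in that of another noncoding gene or pseudogene, and 160 in no annotated gene. At the limit of the rule, the nearest clusters inside were 5.19 kb (SLC22A5) and 5.25 kb (IGFL4) from a TSS, and the nearest outside 4.49 kb (ARHGAP35) and 4.45 kb (DUSP1).

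The clusters were narrow, with a median width of 60 bp, and 83 were 10 bp wide, the smallest width listed. Only 28 were over 500 bp. The share wider than the joint median was 42.5%, against 33.5% of TSS-proximal clusters, or 9.01 points more (-0.376 to 18.0), with an adjusted p of 0.141 by the exact median test. That difference passed when 1 cluster was kept per run of neighbours (11.6 points, adjusted exact p = 0.0466), and changed sign among clusters over 10 bp (-4.63 points, 0.816). In the MCFDCIS-named lists, D4-listed clusters had a median width of 160 bp and parental-only clusters one of 60 bp. The share above the median differed by 17.4 points (-2.31 to 34.9, adjusted exact p = 0.202), and by 50.4 points among clusters over 10 bp (adjusted exact p = 0.0001). Under the MCF10A name the medians were 60 and 110 bp, and the difference of -4.18 points did not pass (-20.8 to 13.0, adjusted exact p = 0.72).

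Chromosomes 5 (47 clusters), 1 (44), 3 (32), 2 (30) and 17 (22) held the most, and per length chromosomes 17 and 5 stood highest, with 27.1 and 26 clusters per 100 Mb. Chromosome 5 thus held 17.1% of the distal intergenic clusters, against 18.4% (117) of all 637 clusters outside the dense blocks, and chromosome 17 held 8% against 6.44% (41). On chromosome 5, 41 of the 47 lay beyond the centromeric gap, on the long arm. No distal intergenic cluster lay on chromosomes 18, 20, 21 or 22. Chromosomes 20, 21 and 22 held no cluster of any class, so their absence is not particular to distal intergenic clusters. Most distal intergenic clusters had no near neighbour of their own class. Joining such neighbours into runs, 222 were single, 20 runs were pairs and 4 held 3 or more. Clusters of the other classes were not counted in these runs, so whether any lay near a single cluster is not shown. The 3 FGF1 clusters spanned 8.86 kb (chr5:142097101-142105960), and of these the parental and the D4 list named after MCF10A held 2 each, the MCFDCIS-named D4 list 1 and the MCFDCIS-named parental list none. The 3 clusters 385 kb from THBS1, the thrombospondin gene, were all in the MCFDCIS-named parental list. The 3 clusters near TLN2, the talin gene, were all in the MCF10A-named parental list.

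The widest clusters lay in repeated sequence. The RP11-685N3.1 run on chromosome 2 spanned 43.8 kb with 4 clusters of 8610 to 8760 bp in width, and each had a further close match in the genome (at least 95% identity over at least 90 of the central 100 bp). Such a match was found for 21 of the 275, 7.64% (4.79 to 11.4), against 4 of 167 TSS-proximal and 2 of 195 distal intragenic clusters. It was found for 5 of 39 D4-listed and 10 of 151 parental-only clusters under the MCF10A name, and for 6 of 27 and 7 of 208 under the MCFDCIS name. The cluster near IZUMO1R had 173 such matches. The sources used here do not give how reads from such copies were assigned, and the results without these clusters stand in the closing section.

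Distal intergenic clusters were lower in GC content than TSS-proximal ones. Over the central 500 bp the median was 45.4% in distal intergenic, 45.4% in distal intragenic and 52.6% in TSS-proximal clusters. The share above the joint median was 40.4% (111 of 275) against 65.9% (110 of 167) of TSS-proximal clusters, which is -25.5 points (-34.3 to -16.0), with an adjusted p of 5.72e-07 by the exact median test. Against distal intragenic clusters it was 1.10 points (-8.01 to 10.2, adjusted exact p = 0.852).

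Within the MCF10A-named lists, D4-listed distal intergenic clusters were poorer in GC than parental-only ones. Their median was 41.2% (n = 39) against 47.0% (n = 151), and 10 of 39 (25.6%) against 85 of 151 (56.3%) lay above the joint median, which is -30.7 points (-44.1 to -13.3), with an adjusted p of 0.00209 by the exact median test. Outside lncRNA bodies it was -26.4 points (adjusted exact p = 0.0745). In the windows 5 kb to either side the medians were 41.1% and 43.9%. The D4-listed clusters were also farther from a TSS, with a median of 125 kb against 53.4 kb, and the part of distance in the GC difference was not tested. Under the MCFDCIS name the GC medians were 46.4% (n = 27) and 45.7% (n = 208), a difference of 7 points (-12.5 to 25.1, adjusted exact p = 0.544). Whether the D4 difference itself differs between line names was not tested.

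AP-1, C/EBP, TEAD and RUNX sequences were found in a larger share of distal intergenic clusters than of their flanks. AP-1 (TGACTCA or its reverse complement TGAGTCA) was in 85 of 275 central windows of 500 bp, 30.9% (25.5 to 36.7), and in 9.09% of the 550 windows of the same length 5 kb to either side. C/EBP (TTGCNNAA) was in 44.4% against 23.3% of flanking windows, TEAD (GGAATG) in 41.8% against 30%, RUNX (TGTGGTT or TGCGGTT) in 20.0% against 12.2%, and GRE in 2.55% against 0.364%. The p53 family motif was in 17.5% against 11.1%, SP/KLF in 11.6% against 9.27% and forkhead in 15.3% against 16.7%. AP-1, C/EBP, TEAD and RUNX were also more frequent than in flanks in the other 2 position classes. In distal intragenic clusters AP-1 was in 30.8% against 8.72%, C/EBP in 42.1% against 20.3%, TEAD in 42.1% against 24.1% and RUNX in 22.1% against 9.49%. The comparison with flanks is a description, and the intervals of GRE in distal intergenic clusters (1.03 to 5.17) and their flanks (0.0441 to 1.31) overlap. Searched as well, on both strands, were ETS (CCGGAAG), SP/KLF (GGGCGG), forkhead (TGTTTAC or TATTTAC), GRHL (AACCGGTT or AACCTGTT), NF1 (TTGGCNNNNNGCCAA), the estrogen response element (GGTCANNNTGACC), and the p53 family and CTCF motifs. A stretch could count for more than 1 motif.

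Of 26 tests over 13 motifs and the 2 other position classes, 3 passed, all against TSS-proximal clusters. SP/KLF, the GC box of promoters, was in 11.6% (32 of 275) against 35.9% (60 of 167), which is -24.3 points (-32.5 to -16.2), with an adjusted p of 7.49e-08 by Fisher's exact test. ETS was in 4 of 275 against 10.8% (18), a difference of -9.32 points (-15.0 to -4.88, adjusted exact p = 0.000254), which did not pass above the median score or in the central 200 bp (adjusted exact p = 0.108 and 0.114). C/EBP was in 44.4% (122) against 29.3% (49), a difference of 15.0 points (5.72 to 23.7, adjusted exact p = 0.0155), which passed in 3 of 8 other settings, with adjusted exact p up to 0.359. Distal intragenic clusters were near the distal intergenic ones in all 3 motifs. The differences from them were -2.72 points (-9.22 to 3.33) for SP/KLF, -0.0839 (-3.10 to 2.36) for ETS and 2.31 (-6.76 to 11.3) for C/EBP. AP-1 differed by 6.96 points (-1.75 to 15.1, adjusted exact p = 0.831) from TSS-proximal and by 0.140 points (-8.40 to 8.45, adjusted exact p = 1) from distal intragenic clusters.

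**Figure D3:**
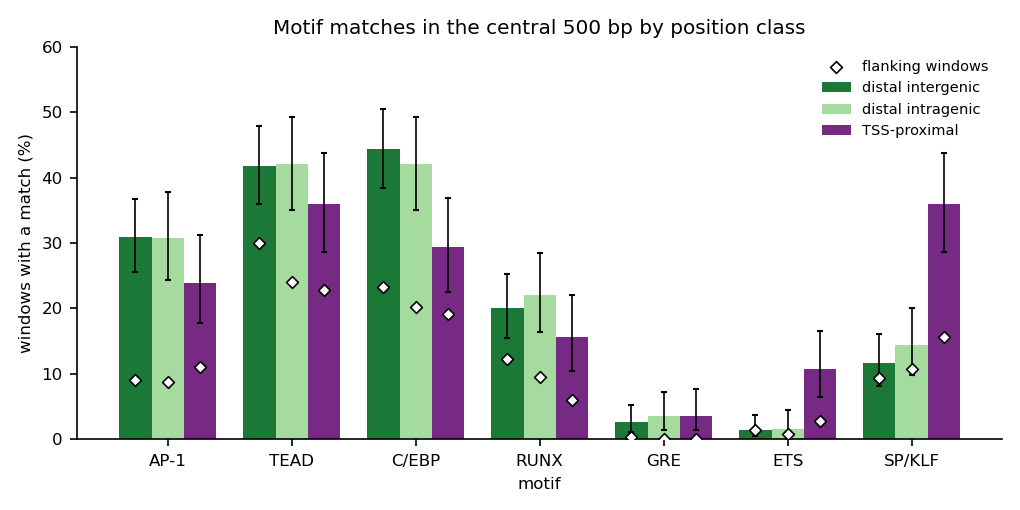
Bars give the percentage of clusters with a match in the central 500 bp for 7 motifs in distal intergenic (n = 275), distal intragenic (n = 195) and TSS-proximal (n = 167) clusters, with exact 95% intervals, and diamonds the percentage of flanking windows. SP/KLF is in 35.9% of TSS-proximal and 11.6% of distal intergenic clusters, and AP-1 is in 30.9% of distal intergenic clusters against 9.09% of their flanks.

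The AP-1, TEAD and GRE matches were concentrated at the middle of the distal intergenic clusters. In the 100 bp at the centre, 29 of 275 clusters (10.5%) held AP-1, against a mean of 1.75% in bins 1 kb or more away, where the highest bin had 3.27%. TEAD was in 54 (19.6%), against a mean of 5.93% and a highest bin of 8.73%. GRE was in 7 (2.55%), against a mean of 0.0331%. The other position classes also had more matches at the centre. In distal intragenic clusters the central shares of AP-1, TEAD and GRE were 14.4%, 17.9% and 2.56%, against means of 2.07%, 5.48% and 0.0466%. In TSS-proximal clusters they were 10.8%, 11.4% and 2.40%, against means of 1.66%, 5.55% and 0%. TEAD matches were in 38 of 85 clusters with AP-1 (44.7%) and in 77 of 190 without (40.5%).

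**Figure D4:**
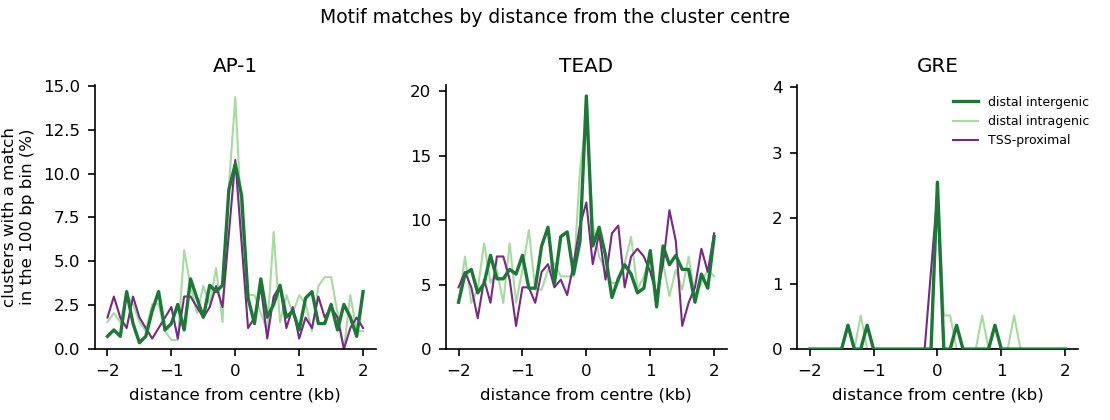
Lines give the percentage of clusters (vertical axis) with a match in each 100 bp bin, by distance from the cluster centre (horizontal axis, kb), for AP-1, TEAD and GRE in the 3 position classes. For distal intergenic clusters the central bin stands at 10.5% for AP-1, 19.6% for TEAD and 2.55% for GRE. In the same order it stands at 14.4%, 17.9% and 2.56% for distal intragenic and at 10.8%, 11.4% and 2.40% for TSS-proximal clusters.

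By count, AP-1 was most frequent in clusters of both parental lists. It was in 52 of 134 such clusters, 38.8% (30.5 to 47.6), in 32 of 128 clusters of 1 parental list, 25% (17.8 to 33.4), and in 1 of 13 clusters of none. Of the clusters scored in the upper part of the MCF10A-named parental list 40.2% (33 of 82) held AP-1, and of those in the lower part 28.6% (24 of 84). In the MCFDCIS-named parental list these shares were 40.9% (47 of 115) and 27.8% (32 of 115). No test was made of these splits, and their intervals overlap.

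D4-listed clusters held AP-1 less often by count, but no motif passed the test over 26 comparisons. Under the MCFDCIS name AP-1 was in 3 of 27 D4-listed clusters, 11.1% (2.35 to 29.2), and in 76 of 208 parental-only clusters, 36.5% (30 to 43.5). The difference was -25.4 points (-35.3 to -7.37), with p = 0.00854 before and 0.222 after adjustment by Fisher's exact test. In the central 200 bp none of 27 D4-listed clusters held AP-1, which allows a share of up to 11.1%, against 52 of 208 (25%), and there the difference passed (adjusted exact p = 0.0265). Under the MCF10A name AP-1 was in 8 of 39 (20.5%) and 55 of 151 (36.4%), a difference of -15.9 points (-28.5 to 0.768, adjusted exact p = 0.736). RUNX under the MCFDCIS name was in 1 of 27 (3.70%) and 46 of 208 (22.1%), with an exact p = 0.0212 and an adjusted exact p of 0.276. These 2 were the tests with an unadjusted exact p under 0.05.

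**Figure D5:**
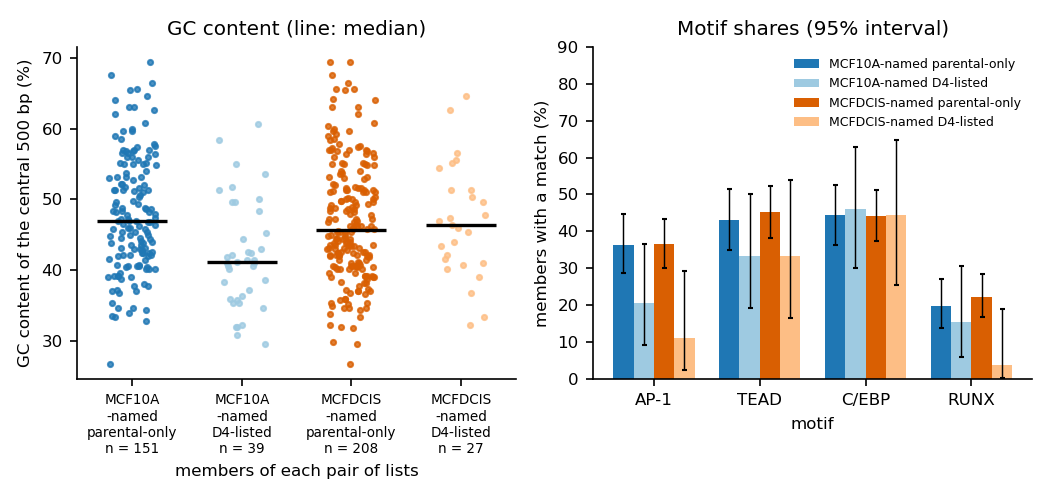
Left, points give the GC content (%) of the central 500 bp of each distal intergenic cluster, by line name and by D4-listed or parental-only status, with lines at the medians (41.2% and 47.0% under the MCF10A name, 46.4% and 45.7% under the MCFDCIS name). Right, bars give the percentage of these clusters with a match to 4 motifs, with exact 95% intervals, where AP-1 is in 11.1% of MCFDCIS-named D4-listed clusters and 36.5% of parental-only ones.

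Genes with a distal intergenic cluster within 100 kb of a TSS were counted in lists of genes chosen with earlier results of these data known, and no test was made. Listed genes on chromosomes without any cluster, NCOA3 among them, were left out. Of 30 listed nuclear receptor and coactivator genes 26 remained, and of 24 listed luminal genes 21. Among all 18547 protein-coding genes of the chromosomes with clusters, 398 (2.15%) had a distal intergenic cluster within 100 kb of a TSS. Of 28 matched glucocorticoid targets 5 did: KLF9, ANGPTL4, ERRFI1, CAVIN2 and TFCP2L1. The KLF9 cluster, 5.43 kb from the TSS of this glucocorticoid-induced transcription factor gene, held AP-1 and scored 18.9 and 29.2 in the MCF10A-named and MCFDCIS-named parental lists. The ERRFI1 cluster, 44.8 kb upstream of a feedback inhibitor of the EGF receptor, scored 13.1 and 21.5. Except for TFCP2L1, none of the 5 was in a D4 list.

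Of 26 AP-1 and immediate early genes 4 had a cluster: FOS (24.2 kb), BHLHE40 (7.58 kb), IER5 (23.9 kb) and PHLDA1 (11.2 kb). The FOS cluster scored 17.6 and 49.4 in the MCF10A-named and MCFDCIS-named parental lists. The PHLDA1 cluster was in the MCFDCIS-named parental (56.6) and D4 (8.03) lists only. Of 40 growth factor signalling genes 3 did, EGFR, FGF1 and IGFBP4. The EGFR cluster, 51.4 kb from the TSS of the EGF receptor gene, held AP-1 and TEAD matches and scored 31.6 and 60.4 in the parental lists.

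Among 26 genes of basal and myoepithelial cells 6 had such a cluster, against 1 of 21 luminal genes (ELF3), 1 of 22 blood cell genes (CD14), 2 of 14 fibroblast and adipocyte genes (DPT and LEP) and none of 21 neuronal genes. EGFR was among them, and KRT14, KRT16 and KRT17, the basal and stress keratin genes, share one cluster 26.9 kb from KRT17. It scored 25.7 and 46.2 in the MCF10A-named and MCFDCIS-named parental lists. MYLK had one in the MCF10A-named D4 list alone (10.9). The files hold no expression, so these positions do not check the cell type.

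The remaining lists had few members with a cluster: 3 of 33 extracellular matrix genes (ITGA3 and ITGB6 among them), TGFBI and TGFBR2 of 23 TGF-beta pathway genes, AMOTL2 of 29 YAP-TEAD targets, SPARC of 26 mesenchymal genes and TOP2A of 22 cell cycle genes. The TOP2A and IGFBP4 counts rest on the same cluster, which is nearest to TNS4. TGFBR2, the TGF-beta receptor gene, had a cluster 9.08 kb from its TSS called in the MCF10A-named D4 (9.40) and the MCFDCIS-named parental list (38.6). None of 24 NF-kB and inflammatory genes and none of 26 nuclear receptor and coactivator genes had one.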

How the data were processed

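AIB1 ChIP-seq and input samples of 4 groups were represented by 4 deposited lists of clusters, 1 per group. The ChIP data had been normalized to cell lysate input according to the series' design text, on hg19 (GRCh37) as listed in the submitters' processing notes. The sources used here do not give the aligner, the caller, its threshold or any pooling. The authors deposited a score per cluster whose definition is not stated. Tests used it within lists only. Where scores of different lists stand side by side, or are correlated by rank, this is a description, since a shared scale is not stated.

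Identical intervals were counted once. Positions were taken from GENCODE 44 lifted to GRCh37. Shares were compared by two-sided Fisher's exact tests, and GC content, width and scores by exact median tests, with Benjamini-Hochberg adjustment within each family and a threshold of 0.05. Motifs were searched in the central 500 bp. Second matches of the central 100 bp were sought with minimap2 2.31-r1302. Python 3.11.15, SciPy 1.17.1, statsmodels 0.14.6, pandas 2.3.3 and pysam 0.24.0 were used. The motif tests against other position classes were run on simulated data of 637 clusters, with 1 base share for all motifs. There 40 of 40 planted differences of 30 points and 28 of 40 of 15 points were found. At 30 points, 5 of 480 tests without a planted difference also passed. The tests of D4-listed against parental-only clusters, with fewer clusters, and rarer or more frequent motifs were not simulated. Named clusters were those in 3 or 4 lists, the 5 highest-scored per list, the 5 widest, the 3 farthest from a TSS, runs of 3 or more, those with a GRE, and genes of the lists within 100 kb, and the text describes a part of them. Members, gene lists and tests were chosen with earlier results of these data known. Some clusters, genes and sites are not reported here.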

Additional observations from a re-analysis of the deposited data

How the results depend on the processing

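Results were recomputed in 8 other settings, 242 values in all, of which 192 kept their direction and side of the threshold. The GC content and SP/KLF differences from TSS-proximal clusters passed in all 8 settings. The GC difference of MCF10A-named D4-listed clusters passed in 7 of 8 (not outside lncRNA bodies, -26.4 points), ETS in 6 of 8, and C/EBP in 3 of 8. The both-parental share passed in 5 of 7 (not above the median score, 12.4, nor without chromosome 5, 12.6), and the MCFDCIS-named D4 share in 4 of 7 (not at 10 kb, -8.71, above the median score, -13.2, or without chromosome 5, -11.4). The cause of each loss was not tested. Width passed against TSS-proximal clusters with 1 cluster per run (11.6) and for MCFDCIS-named D4-listed clusters over 10 bp (50.4). The number of motif tests past the threshold against other classes fell from 3 to 1 above the median score and in the central 200 bp, and that for D4-listed clusters rose from 0 to 1 in the central 200 bp.

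In 31 values of 13 results the direction changed, always for differences that did not pass in either setting (smallest adjusted exact p = 0.428). All are in points. Above the median score they were the D4 share against intragenic clusters under the MCF10A name (-0.0636), the both-parental share against intragenic clusters (-0.425), the scores in the MCF10A-named D4 (0.926), MCFDCIS-named D4 (-12.2) and MCFDCIS-named parental (-2.22) lists, and width against intragenic clusters (-1.77). Over 10 bp they were GC (-0.648) and width (-1.36) against intragenic clusters, width against TSS-proximal clusters (-4.63) and MCF10A-named D4 width (2.46). Without close second matches they were the D4 shares against intragenic clusters (-0.91 and -1.25 for MCF10A and MCFDCIS names), MCFDCIS-named D4 GC (-2.13) and width against intragenic clusters (-0.381). With 1 cluster per run they were the MCFDCIS-named D4 share (-0.271), GC (-0.872), AP-1 (-0.444) and width (-0.638) against intragenic clusters, and the MCFDCIS-named D4 score (-4.17). Without chromosome 5 they were the MCF10A-named D4 share (-0.353) and width (-0.72) against intragenic clusters, the MCFDCIS-named D4 score (-4.55) and MCF10A-named D4 width (8.68). Outside lncRNA bodies they were the MCFDCIS-named D4 share (-2.21), AP-1 (-2.63) and width (-0.82) against intragenic clusters, and the MCFDCIS-named D4 score (-1.92). At 10 kb they were AP-1 against intragenic (-0.262) and GRE against TSS-proximal clusters (0.123). In the central 200 bp they were AP-1 against intragenic clusters (-0.876) and MCFDCIS-named D4 GC (-5.56).

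No paired analysis was possible because each group is 1 list without values per replicate, and for the same reason leaving out each replicate was not run. The lists used here give no sequencing depth, and intervals cover the number of clusters only.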
